A study of Mus musculus with 6 samples.

Results

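Cytotoxic lymphocytes kill through secretory lysosomes, the cytotoxic granules, and through Fas ligand on their surface, and they carry serpins that inhibit granzymes leaking into their own cytosol. The measurements below concern 10 genes of this system in whole B16F10 tumors. They were selected by symbol from a table of 21358 entries, and all 10 were found and passed the filter on low values. They are *Nkg7*, *Srgn*, *Ctsw* and *Fasl*, which encode granule or killing proteins, *Serpinb9*, *Serpinb9b* and *Serpinb6b*, which encode granzyme inhibitors, and *Rab27a*, *Unc13d* and *Stx11*, which encode the machinery that docks, primes and fuses the granule.

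C57/BL6 mice carrying B16F10, a syngeneic melanoma line, were irradiated and received ACT, here activated splenocytes of pmel-1 mice, whose CD8 T cells bear a transgenic TCR for the melanocyte protein gp100, once tumors reached at least 150 mm3. The ACT + IL-2 group (3 tumors) received IL-2 on consecutive days of each cycle, and the ACT + NKTR-214 group (3 tumors) received NKTR-214, IL-2 carrying releasable polyethylene glycol chains that bias it towards the IL-2 receptor βγ, once per cycle. Both groups therefore shared irradiation and transferred cells, and no group without a cytokine was analysed here. Tumors were taken at day 12, 1 library each, and hosts and donors of the transferred cells were young female mice.

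A cytotoxic granule is carried along microtubules to the contact with a target cell, docked by the GTPase Rab27a, primed by Munc13-4 (the product of *Unc13d*) and fused with the plasma membrane by SNARE proteins that include syntaxin-11 (*Stx11*). Inside the granule, the proteoglycan serglycin (*Srgn*) holds granzymes and perforin. Rab27a also works outside lymphocytes: in melanocytes it links the melanosome, through melanophilin (*Mlph*), to the motor myosin Va (*Myo5a*). Whole tumors mix lymphocytes with melanoma cells, and in such RNA more cells of a type and more RNA per cell cannot be told apart.

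Expression is given as FPKM, a read count divided by exon length and by library size, so levels of different genes may be compared per length. The groups were compared with limma on log2(FPKM + 1) over 14172 entries (mean FPKM of 0.1 or more), and Benjamini-Hochberg adjusted p-values under 0.05 were taken as past the threshold. A log2 fold change is ACT + NKTR-214 minus ACT + IL-2, and the added 1 makes it understate the change of genes with low values. Of all entries tested, 20.7% rose and 8.28% fell in ACT + NKTR-214 relative to ACT + IL-2, and the median log2 fold change was 0.05. The lower calls, 1173 in number, were 2003 when ACT + IL-2 replicate 2 was omitted, 635 when replicate 3 of that group was omitted and 682 when ACT + NKTR-214 replicate 2 was omitted. Rescaling to TPM, which gives each library a common total and also makes the added 1 smaller relative to the values, moved the median by -0.15 and gave 2926 higher and 4426 lower calls in place of 2940 and 1173, so that the higher calls made up 39.8% rather than 71.5% of all calls. Without sharing variance across genes, the same test called only 101 higher and 27 lower entries. Relative sequencing depth, read from the step size of low FPKM values, ranged from 0.877 to 1.03 of ACT + IL-2 replicate 1.

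Of the 10 genes, 9 were higher and 1, *Rab27a*, was lower in ACT + NKTR-214. Their median log2 fold change was 2.19. For none of the 10 did the values of the 2 groups overlap, where 27.1% of all entries tested lay above and 15.3% lay below without overlap. The 9 higher calls and the 1 lower call also stood under each of the 3 other scalings tried, and 8 or 9 genes were higher with any 1 tumor left out. When the variance of each gene was taken alone, *Serpinb9b* was the only one of the 10 past the threshold, with an adjusted p of 0.0419 in limma's linear model without moderation.

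**Figure D1:**
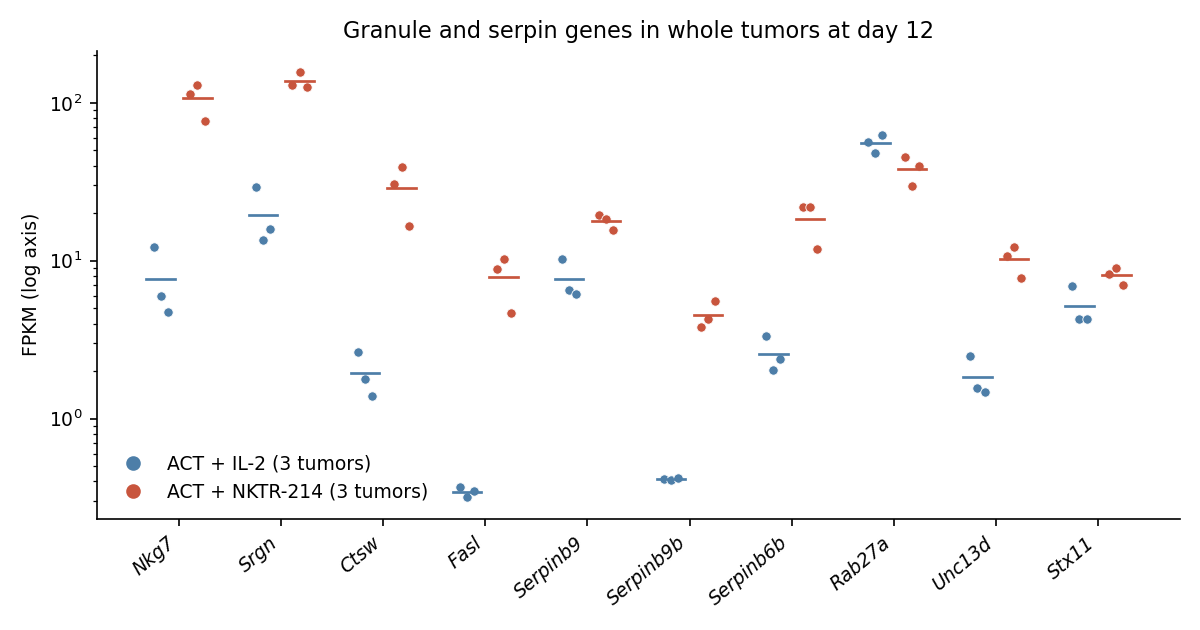
FPKM of the 10 genes in each tumor on a log axis, with points for tumors and horizontal lines for the means of 3 tumors. The ACT + NKTR-214 points lie above the ACT + IL-2 points for 9 genes and below them for Rab27a, and the gap is narrowest for Stx11.

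*Nkg7* encodes a granule membrane protein of T and NK cells that is needed for efficient degranulation. It lies on chromosome 7 at 43437073-43438249, plus strand (positions throughout follow GENCODE vM21, build GRCm38). Its FPKM was 12.2, 6.0 and 4.75 in the ACT + IL-2 tumors and 114, 130 and 77.0 in the ACT + NKTR-214 tumors, each in the order of replicates 1, 2 and 3. The lowest ACT + NKTR-214 tumor was thus above the highest ACT + IL-2 tumor by 64.8 FPKM. The means were 7.67 ± 4.01 (SD, n = 3) and 107 ± 27.1 (SD, n = 3), a ratio of 13.9, and the log2 fold change of 3.70 ± 0.26 (SE) had a limma adjusted p of 8.0e-08. This was the largest log2 fold change of the 10 on log2(FPKM + 1). With 0.1 added in place of 1, that of *Fasl* was larger, at 4.11 against 3.87.

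*Srgn* lies on chromosome 10 at 62493833-62527451, minus strand. Its FPKM was 29.2, 13.5 and 15.9 in the ACT + IL-2 tumors and 129, 157 and 126 in the ACT + NKTR-214 tumors. It had the highest mean of the 10 genes in ACT + NKTR-214, 137 ± 16.9 (SD, n = 3), against 19.6 ± 8.45 (SD, n = 3) in ACT + IL-2, where it was second to *Rab27a*. The log2 fold change was 2.82 ± 0.22 (SE), with a limma adjusted p of 2.42e-07. Serglycin is also made by macrophages, mast cells and platelets, and the summed FPKM of 8 macrophage and monocyte genes ranged from 330 to 952 in ACT + IL-2 and from 1518 to 2728 in ACT + NKTR-214, a movement whose part in the *Srgn* result was not tested.

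*Ctsw* encodes cathepsin W, a cysteine protease of CD8 T cells and NK cells, on chromosome 19 at 5465043-5468507, minus strand. Its FPKM was 2.64, 1.78 and 1.39 in the ACT + IL-2 tumors and 30.4, 39.2 and 16.5 in the ACT + NKTR-214 tumors. The groups were far apart, although ACT + NKTR-214 replicate 3 held less than the other two. The log2 fold change was 3.28 ± 0.25 (SE), with a limma adjusted p of 1.61e-07, and the ratio of means was 14.8.

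*Fasl*, the ligand that triggers the death receptor Fas, lies on chromosome 1 at 161780689-161788495, minus strand. Its FPKM was 0.369, 0.316 and 0.346 in the ACT + IL-2 tumors and 8.85, 10.3 and 4.69 in the ACT + NKTR-214 tumors. It was the least expressed of the 10 in ACT + IL-2, where the FPKM steps corresponded to 17, 14 and 14 reads. The exact 95% Poisson intervals of those counts reached from 7.65 to 27.2 reads, against 215 to 484 reads in the ACT + NKTR-214 tumors, and these intervals cover counting error only. The ratio of mean FPKM, 23.1, was the largest of the 10, while the log2 fold change of 2.67 ± 0.20 (SE), limma adjusted p of 1.89e-07, was below those of *Nkg7*, *Ctsw* and *Srgn*.

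The 3 serpins of clade B sit side by side on chromosome 13, all on the plus strand. *Serpinb6b*, an inhibitor of granzyme A, occupies 32965209-32979067. *Serpinb9*, an inhibitor of granzyme B, occupies 33003250-33017957 and begins 24182 bases further on. *Serpinb9b*, an inhibitor of granzyme M, occupies 33027416-33041884, 9458 bases beyond the end of *Serpinb9*. The promoters of *Serpinb9* and *Serpinb9b* in RefSeq (GRCm38.p6, 250 bases before to 50 after the start) aligned over 193 bases, of which 148 (76.7%) were identical. The pair is shown at a stretch where they differ in a motif. The *Serpinb9* stretch is chr13:33004485-33004514, plus strand, positions -56 to -27 from the RefSeq start and in an intron of the GENCODE gene, and the aligned *Serpinb9b* stretch is chr13:33027354-33027383, plus strand, positions -60 to -31 and upstream of the gene. Capitals mark, in *Serpinb9*, a match on the minus strand to the interferon regulatory factor motif GAAANNGAAA at positions -46 to -37, and, in *Serpinb9b*, the aligned bases at positions -50 to -41.
Serpinb9: ctcctgctacTTTCACTTTCtctaaggacc
Serpinb9b: ctcctgctatTTTCCCTTCCtctaagggcc
Within the capitals, counted from 1 at the first, *Serpinb9b* differs by A5C and T9C and holds no match to this motif in its 300 bases. Among all 32851 RefSeq promoters of the same length, 3.44% held the motif on either strand. Of the 10 genes, 8 were matched to 10 promoters, and 2 of these 10 held it, the other being a second start of *Srgn*. A match describes letters and is not a measured site.

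*Serpinb9* was already well expressed in ACT + IL-2, at 10.3, 6.52 and 6.14 FPKM, and measured 19.4, 18.3 and 15.6 FPKM in the ACT + NKTR-214 tumors. The groups were 5.27 FPKM apart at their nearest. With means of 7.65 ± 2.29 (SD, n = 3) and 17.8 ± 2.00 (SD, n = 3), the ratio was 2.32. The log2 fold change of 1.14 ± 0.18 (SE) had a limma adjusted p of 0.000157.

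*Serpinb9b* measured 0.413, 0.407 and 0.421 FPKM in the ACT + IL-2 tumors, from 17 to 19 reads each, and 3.80, 4.29 and 5.52 FPKM in the ACT + NKTR-214 tumors. Its highest value fell in ACT + NKTR-214 replicate 3, the tumor with the lowest value for 8 of the 10 genes. The ratio of means was 11.0, and the log2 fold change of 1.96 ± 0.14 (SE) had a limma adjusted p of 1.14e-07. Of its 50-base windows, 5.38% occur in other annotated genes, *Serpinb9* among them, and 8.3% of its exon bases overlap a gene model on the opposite strand, so part of its reads may be assigned with less certainty than those of *Serpinb9* (0.378%).

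*Serpinb6b* measured 3.31, 2.04 and 2.39 FPKM in the ACT + IL-2 tumors and 21.7, 21.9 and 11.8 FPKM in the ACT + NKTR-214 tumors. ACT + NKTR-214 replicate 3 again gave the lowest value of its group and still exceeded every ACT + IL-2 tumor. The log2 fold change was 2.41 ± 0.21 (SE), with a limma adjusted p of 7.85e-07. Windows shared with other genes, *Serpinb6a* and *Serpinb6c* among them, made up 2.92% of its transcript.

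The serpins were also set against the granzymes they inhibit. These ratios, and those of *Srgn* and *Rab27a* given further on, were chosen after the values had been seen. The FPKM of *Serpinb9* was 0.82, 1.2 and 0.967 times that of *Gzmb* (granzyme B) in the ACT + IL-2 tumors and 0.0867, 0.0748 and 0.064 times that of *Gzmb* in the ACT + NKTR-214 tumors. The FPKM of *Serpinb6b* was 0.493, 0.496 and 0.611 times that of *Gzma* (granzyme A) in ACT + IL-2 and 0.102, 0.0763 and 0.0545 times in ACT + NKTR-214. Neither ratio overlapped between the groups, and both were lower under NKTR-214, as were 99.9% of all entries tested relative to *Gzmb* and 14166 of 14172 (100% when rounded) relative to *Gzma*, so this is not particular to the serpins. The difference of *Serpinb9b* from *Gzmm* (granzyme M) on log2(FPKM + 1) went the other way, from -0.09 ± 0.10 (SD, n = 3) to 1.17 ± 0.60 (SD, n = 3), as did 4.44% of all entries tested without overlap. *Gzmm* measured 0.388, 0.590 and 0.544 FPKM in ACT + IL-2 and 1.35, 2.36 and 0.839 FPKM in ACT + NKTR-214. Both genes were below 1 FPKM in ACT + IL-2, where the added 1 holds their difference near 0. *Srgn* measured 2.33, 2.50 and 2.50 times the FPKM of *Gzmb* in ACT + IL-2 and 0.576, 0.639 and 0.516 times in ACT + NKTR-214. Each of these 4 differences, and that of *Rab27a* from the melanoma genes, had an exact two-sided permutation p of 0.1 on the log2 scale, the smallest that 3 against 3 tumors can give, and 0.1 after adjustment over the 5.

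The genes of granule docking, priming and fusion differed among themselves in size and direction. *Unc13d*, on chromosome 11 at 116062095-116077961 (minus strand), measured 2.49, 1.57 and 1.46 FPKM in the ACT + IL-2 tumors and 10.8, 12.1 and 7.78 FPKM in the ACT + NKTR-214 tumors. The groups were clearly separated, with a ratio of means of 5.56, a log2 fold change of 1.98 ± 0.19 (SE) and a limma adjusted p of 1.36e-06.

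*Stx11*, on chromosome 10 at 12938209-12964298 (minus strand), measured 6.90, 4.27 and 4.26 FPKM in the ACT + IL-2 tumors and 8.23, 8.94 and 7.01 FPKM in the ACT + NKTR-214 tumors. The highest ACT + IL-2 tumor and the lowest ACT + NKTR-214 tumor differed by only 0.102 FPKM, and their read counts, 394 and 398, agreed within counting error. The log2 fold change was 0.58 ± 0.18 (SE), with a limma adjusted p of 0.0230. The call rested on single tumors: leaving out ACT + IL-2 replicate 2 or 3 gave a limma adjusted p of 0.105 or 0.0933, leaving out ACT + NKTR-214 replicate 1 or 2 gave 0.0517 or 0.0626, and the value was 0.0718 with no minimum on FPKM.

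**Figure D2:**
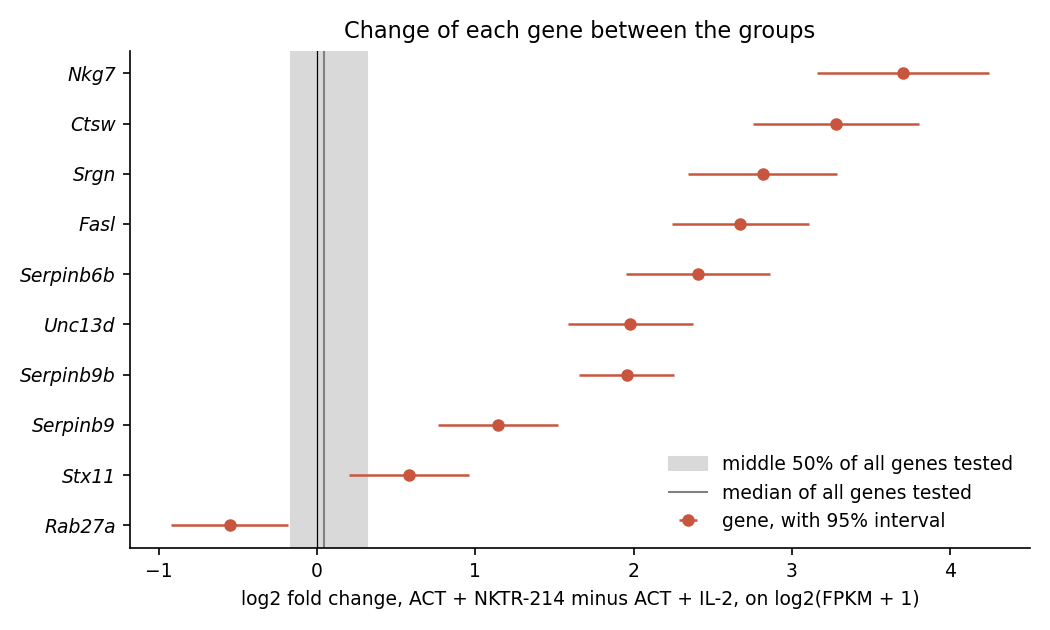
Log2 fold change of each of the 10 genes on log2(FPKM + 1), with 95% intervals from limma. The grey band spans the middle 50% of all entries tested, from -0.17 to 0.32, the interval of Stx11 reaches into it, that of Rab27a ends just below it, and those of the other 8 genes lie above it.

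*Rab27a* was the exception in level and in direction. It lies on chromosome 9 at 73044854-73097629, plus strand. Its FPKM was 56.4, 48.4 and 62.7 in the ACT + IL-2 tumors and 45.1, 29.6 and 39.7 in the ACT + NKTR-214 tumors. All 3 ACT + NKTR-214 tumors were below all 3 ACT + IL-2 tumors, by 3.26 FPKM at the nearest. The means were 55.8 ± 7.17 (SD, n = 3) and 38.1 ± 7.90 (SD, n = 3), and the log2 fold change of -0.55 ± 0.17 (SE) had a limma adjusted p of 0.0256. Leaving out ACT + IL-2 replicate 3 gave a limma adjusted p of 0.119, leaving out ACT + NKTR-214 replicate 2 gave 0.201, and the value was 0.0659 with no minimum on FPKM. Its mean was the highest of the 10 in ACT + IL-2 and the third highest in ACT + NKTR-214.

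The RefSeq promoter of *Rab27a* is shown because this was the gene that went against the other 9. Capitals mark RUNX (TGTGGT) and T-box (GGTGTGA, here on the minus strand) motifs in a stretch at chr9:73044664-73044693 (GRCm38.p6), positions -146 to -117 from the RefSeq start and upstream of the GENCODE gene.
Rab27a: accctcTGTGGTtcTCACACCtttcagaag
Searched on both strands, the RUNX letters occurred in 16.8% and the T-box letters in 3.98% of all RefSeq promoters of this length. The promoter of *Nkg7*, with the largest log2 fold change in the other direction, also held both. The E-box letters CACGTG occurred in a second start of *Rab27a* and in 7.15% of all promoters.

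Melanoma genes moved in the same direction as *Rab27a*. Of 6 melanoma genes, *Pmel*, *Tyr*, *Tyrp1* and *Mitf* were lower in ACT + NKTR-214, and *Dct* and *Mlana* gave limma adjusted p of 0.0629 and 0.0526 with log2 fold changes of -0.82 and -0.69. Their summed FPKM ranged from 5275 to 6747 in ACT + IL-2 and from 2573 to 3653 in ACT + NKTR-214. *Pmel*, which encodes gp100, the antigen of the transferred T cells, measured 1443, 1241 and 1564 FPKM in the ACT + IL-2 tumors and 841, 605 and 842 FPKM in the ACT + NKTR-214 tumors. On the log2(FPKM + 1) scale, *Rab27a* minus the mean of the 6 was -3.31 ± 0.04 (SD, n = 3) in ACT + IL-2 and -2.83 ± 0.07 (SD, n = 3) in ACT + NKTR-214, without overlap between the groups, where 97.1% of all entries tested were likewise above without overlap. The difference of 0.48 was 0.30 without *Mitf*, an alternative added after the values had been seen, and *Mitf* itself had a log2 fold change of -1.91. What part the melanoma cells had in the *Rab27a* values was not tested further.

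The partners that Rab27a uses on melanosomes were split. *Myo5a* measured 56.8, 49.5 and 60.1 FPKM in the ACT + IL-2 tumors and 37.1, 26.8 and 33.4 FPKM in the ACT + NKTR-214 tumors, and was lower with a log2 fold change of -0.76 ± 0.16 (SE) and a limma adjusted p of 0.00177. *Mlph* measured 83.0, 76.6 and 102 FPKM against 84.4, 64.4 and 93.1 FPKM, overlapping groups with a log2 fold change of -0.12 and a limma adjusted p of 0.672. Of a list of 6 genes, drawn up as Rab27a effectors of melanocytes, 3 were expressed highly enough to be tested. Among those 3, 0 were higher and 1 was lower, with a median log2 fold change of -0.12. At an unadjusted p under 0.05, the limma count of higher genes among them was also 0. *Exph5*, too low to be tested, measured 0.0044, 0.0091 and 0.005 FPKM in ACT + IL-2. In ACT + NKTR-214 it measured 0.148, 0.154 and 0.0967 FPKM, without overlap. *Myrip* and *Sytl5*, also too low, overlapped.

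**Figure D3:**
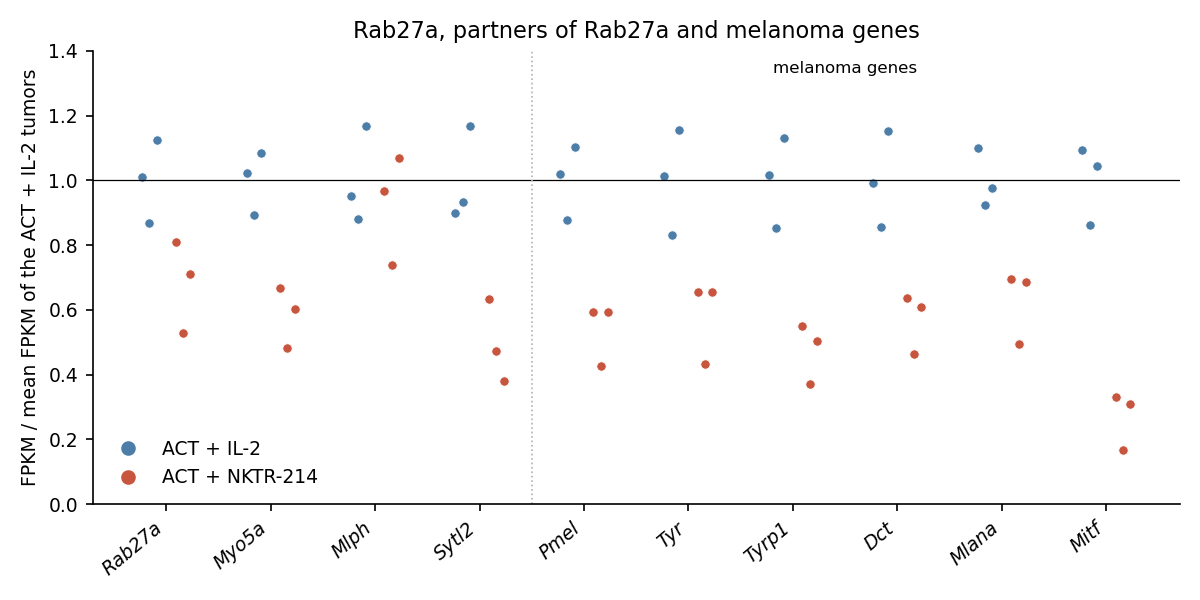
FPKM in each tumor divided by the mean of the 3 ACT + IL-2 tumors, for Rab27a, the Rab27a partners Myo5a, Mlph and Sytl2, and 6 melanoma genes, on a linear axis from 0. Rab27a in ACT + NKTR-214 stood at 0.53 to 0.809 of the ACT + IL-2 mean, between Mlph at 0.739 to 1.07 and Mitf at 0.169 to 0.331.

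The other genes of granule transport and fusion had a lower median change than the 10. Of 31 such genes listed, 30 were in the table and tested, 9 were higher, 1 was lower and 20 were not past the threshold, with a median log2 fold change of 0.18. Of all entries tested, 20.7% were higher and 8.28% were lower. The 3 with the largest log2 fold changes on log2(FPKM + 1) act on the actin cytoskeleton: *Coro1a* (coronin 1A, log2 fold change of 2.93 ± 0.27, SE), *Was* (the Wiskott-Aldrich syndrome protein, 2.05 ± 0.24) and *Dock8* (an exchange factor for Cdc42, 1.72 ± 0.19). Their limma adjusted p were 1.12e-06, 1.03e-05 and 7.26e-06. All 3 are expressed by leukocytes in general. By the ratio of mean FPKM, which the added 1 does not shrink, the lowly expressed *Sytl3* (17.8), *Sytl1* (11.3) and *Rab37* (10.5) ranked above *Coro1a* (7.97), *Was* (4.89) and *Dock8* (3.91). The gene that was lower, *Sytl2*, encodes a synaptotagmin-like protein that binds Rab27a, and it measured 15.0, 15.6 and 19.4 FPKM in the ACT + IL-2 tumors and 10.6, 7.89 and 6.35 FPKM in the ACT + NKTR-214 tumors (limma adjusted p of 0.000721). *Stxbp2*, which encodes the Munc18-2 protein that chaperones syntaxin-11, measured 25.8, 20.5 and 27.1 FPKM against 31.6, 32.5 and 26.8 FPKM, overlapping groups with a limma adjusted p of 0.158.

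Genes for the contents of the granule had the highest median change of the 7 sets plotted together. Of 18 genes for granule effectors and granule biogenesis, 13 were higher and 0 were lower, with a median log2 fold change of 3.00, above the 2.19 of the 10 genes. At an unadjusted limma p under 0.05, the count of lower genes was also 0. The 3 largest on log2(FPKM + 1) were *Gzmf* (log2 fold change of 6.15 ± 0.28, SE), *Gzmg* (5.45 ± 0.34) and *Gzmd* (5.41 ± 0.30), granzymes of a mouse gene cluster with closely similar sequences, so that reads may be shared among them. Their limma adjusted p were 1.08e-09, 3.35e-08 and 1.12e-08. By the ratio of mean FPKM, *Gzme* (90.0) ranked above *Gzmg* (81.9) and *Gzmd* (78.1), below *Gzmf* (152). *Gzmf* measured 0.368, 0.240 and 1.84 FPKM in the ACT + IL-2 tumors and 108, 176 and 88.2 FPKM in the ACT + NKTR-214 tumors. The 5 genes not past the threshold were *Lamp2*, *Cd63*, *Calr*, *M6pr* and *Igf2r*, named here after their values were seen, with log2 fold changes from -0.03 to 0.37, while the lysosomal membrane gene *Lamp1* was past it at 0.61 (limma adjusted p of 0.0385).

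**Figure D4:**
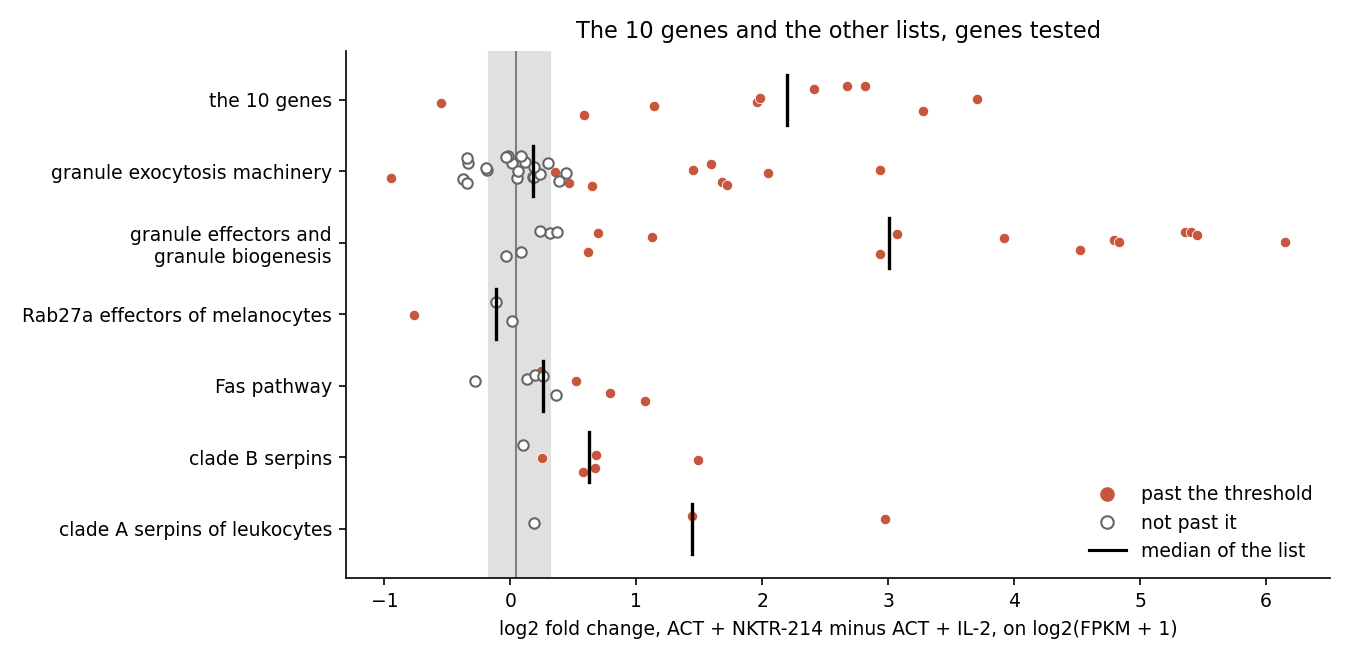
Log2 fold changes of the 10 genes and of the tested genes of 6 further lists, with filled points past the threshold, open points not past it, a black bar at the median of each list, and grey for the middle 50% and the median of all entries tested. The median was 3.00 for granule effectors and granule biogenesis, 2.19 for the 10 genes and 0.18 for the exocytosis machinery.

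Around *Fasl*, the receptor side was measured with 9 genes, of which 4 were higher and 0 were lower (0 also at an unadjusted limma p under 0.05), with a median log2 fold change of 0.26. Of all entries tested, 20.7% were higher. *Fas*, the receptor of *Fasl*, measured 1.67, 1.04 and 0.609 FPKM in the ACT + IL-2 tumors and 3.59, 4.02 and 2.54 FPKM in the ACT + NKTR-214 tumors, a log2 fold change of 1.07 ± 0.18 (SE) with a limma adjusted p of 0.000371. *Ripk1*, a kinase of death receptor complexes, had a log2 fold change of 0.52 ± 0.16 (SE), with a limma adjusted p of 0.0252. The adaptor *Fadd* and the initiator *Casp8* were not past the threshold, at -0.28 and 0.13. *Faim2*, 1 of the 4 higher genes, passed the minimum mean of 0.1 FPKM only through ACT + NKTR-214, with means of 0.0638 and 0.256 FPKM. At a minimum mean FPKM of 1, 3 genes were higher. Only 2 genes were higher when replicate 2 or 3 of ACT + IL-2, or replicate 1 or 2 of ACT + NKTR-214, was left out, and *Ripk1* then lost the threshold in each case, with limma adjusted p from 0.0542 to 0.0709, and also with no minimum on FPKM (0.057).

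Of the 22 other clade B serpins, 16 were too low to be tested, 5 were higher and 0 were lower (0 also at an unadjusted limma p under 0.05), with a median log2 fold change of 0.63 among those tested. Of all entries tested, 20.7% were higher. *Serpinb2*, an inhibitor of urokinase, measured 8.49, 0.937 and 2.50 FPKM in the ACT + IL-2 tumors and 8.12, 14.2 and 9.20 FPKM in the ACT + NKTR-214 tumors, which overlapped (log2 fold change of 1.49 ± 0.39, SE, limma adjusted p of 0.00863). The log2 fold change of *Serpinb2* moved to 2.11 on dropping the first ACT + IL-2 tumor and to 0.96 on dropping the second, and its limma adjusted p was 0.0514 on TPM and 0.0894 with no minimum FPKM. *Serpinb6a* (0.68 ± 0.17) was higher without overlap, and *Serpinb1a*, an inhibitor of neutrophil proteases (0.67 ± 0.19), was higher with overlap, at limma adjusted p of 0.00809 and 0.0147. None of the 5 was past the threshold without ACT + IL-2 replicate 2. Of 3 clade A serpins of leukocytes, 2 were higher and the median log2 fold change was 1.44. *Serpina3n* (2.97 ± 0.29, SE) and *Serpina3g* (1.44 ± 0.24) had limma adjusted p of 1.59e-06 and 0.000337, and *Serpina3n* is also made by stromal cells.

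The 10 genes were next set against T cell genes of the same tumor, by subtracting the mean log2(FPKM + 1) of 7 pan T cell genes. That mean was 1.39 in ACT + IL-2 and 3.90 in ACT + NKTR-214. Relative to it, 98.2% of all entries tested were lower in ACT + NKTR-214 with no overlap between the groups, and 0.43% were higher. Of the 10 genes, 4 were lower without overlap (*Serpinb9*, *Rab27a*, *Unc13d* and *Stx11*), 2 were higher (*Nkg7* and *Ctsw*) and 4 overlapped (*Srgn*, *Fasl*, *Serpinb9b* and *Serpinb6b*). Each of the 6 that did not overlap had an exact two-sided permutation p of 0.1, the smallest this design allows.

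*Stx11* went from 1.15, 1.2 and 1.24 above the T cell mean in ACT + IL-2 to -0.91, -0.97 and -0.31 in ACT + NKTR-214. *Serpinb9* went from 1.66, 1.72 and 1.68 to 0.24, -0.01 and 0.74. *Nkg7* went from 1.90, 1.61 and 1.37 to 2.73, 2.75 and 2.97. Against T cell genes, the first pair was thus lower in every ACT + NKTR-214 tumor on this scale, as were 98.2% of all entries tested. *Nkg7* was higher in every ACT + NKTR-214 tumor, as were 0.43% of all entries. *Fasl*, at -1.38, -0.80 and -0.73 against -0.82, -0.78 and -0.80, stayed within the spread of the ACT + IL-2 tumors.

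The result depended on the T cell genes taken. The 7 genes include *Trat1*, between 0 and 0.417 FPKM, and *Cd247*, whose log2 fold change was 1.22, against 3.53 for *Cd3e*. Relative to *Cd3e* alone, 7 of the 10 were lower and 0 were higher without overlap, where 99.5% of all entries tested were lower and 0.0706% were higher. Relative to *Cd8a* and *Cd8b1* the counts were again 7 and 0, where 99.5% were lower and 0.0847% were higher. *Fasl* was among the 7 under both references, with differences of -0.85 and -0.74, whereas *Nkg7* and *Ctsw* overlapped between the groups, with differences of 0.18 and -0.25 against *Cd3e*. With a pseudocount of 0.1, 3 of the 10 were lower and 3 were higher, *Fasl* being the third of the latter, where 95.9% of all entries were lower and 0.67% were higher. *Serpinb9*, *Rab27a* and *Stx11* were lower in each of the 10 settings tried.

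**Figure D5:**
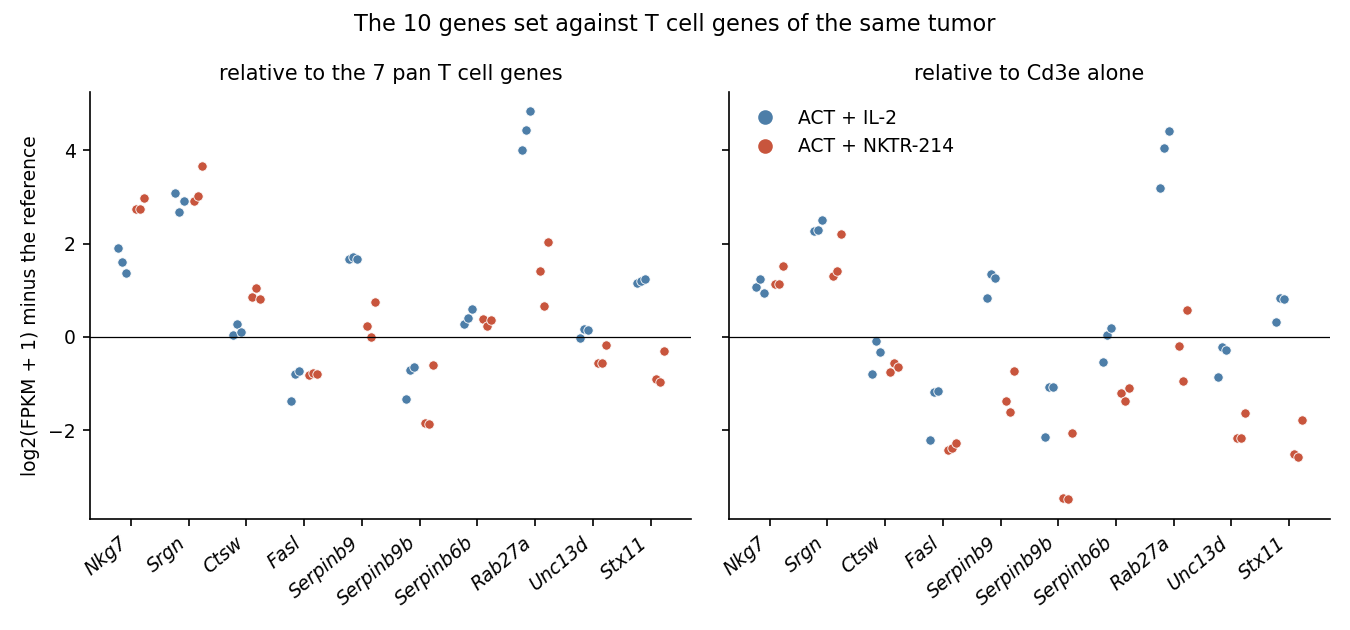
Log2(FPKM + 1) of each of the 10 genes minus the mean of 7 pan T cell genes (left) or minus Cd3e (right) in the same tumor, with points for tumors. On the left Nkg7 and Ctsw lie higher in ACT + NKTR-214, and on the right they overlap, while Serpinb9, Rab27a and Stx11 lie lower in both panels.

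Markers of several cell types that express these genes moved between the groups. Of the pan T cell genes 6 of 7 were higher, and their summed FPKM ranged from 9.70 to 21.6 in ACT + IL-2 and from 104 to 227 in ACT + NKTR-214. Both CD8 T cell genes were higher (3.31 to 8.21 against 45.1 to 99.6), as were 2 of 3 CD4 T cell genes (2.33 to 3.32 against 3.09 to 4.28). Of 6 NK cell genes 3 were higher (1.08 to 3.15 against 8.63 to 19.4). The mean of *Klre1* rose from 0.549 to 9.81 FPKM and that of *Klrb1c* from 0.418 to 3.69 FPKM. *Klra4*, too low to be tested, went the other way without overlap, at 0.086, 0.224 and 0.147 against 0.0415, 0.0421 and 0 FPKM. *Klra8* was at 0 in at least 1 tumor, and the defining receptor *Ncr1* overlapped at 0.294 to 0.915 against 0.316 to 1.15 FPKM. All 8 macrophage and monocyte genes, 3 of 7 neutrophil genes, 3 of 6 dendritic cell genes, 1 of 7 mast cell and basophil genes and 1 of 5 platelet and megakaryocyte genes were higher. The summed FPKM of the neutrophil genes ranged from 2.22 to 4.60 and from 16.4 to 41.1, with *Ly6g*, *Mpo*, *Elane* and *Camp* at 0 in at least 1 tumor. The sums were 3.03 to 5.11 and 4.80 to 9.95 for dendritic cells, 1.81 to 7.16 and 2.49 to 12.7 for mast cells and basophils, and 6.58 to 23.3 and 47.6 to 88.8 for platelets and megakaryocytes. Among B and plasma cell genes and erythroid genes 0 were higher by limma, and 0 at an unadjusted p under 0.05, with sums of 0.888 to 2.03 against 0.960 to 1.58 and of 37.4 to 121 against 72.5 to 127. Of 4 endothelial genes 1 was higher (22.1 to 47.8 against 33.9 to 69.4), and all 4 fibroblast genes were (162 to 486 against 434 to 888). The part of any of these cell types in the values of the 10 genes was not tested.

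ACT + IL-2 replicate 1 was the highest of its group for 8 of the 10 genes, and for pan T cell genes its sum was also the highest, at 21.6. ACT + NKTR-214 replicate 3 was the lowest of its group for 8 of them, and its pan T cell sum was the lowest, at 104. *Serpinb9b* and *Rab27a* were the exceptions in both groups.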

How the data were processed

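Total RNA of whole tumors was sequenced by the authors as single-end reads, mapped to GRCm38 with HISAT2 2.0.4 (version from the submitters' processing notes) and counted per gene with HTSeq, and FPKM values were deposited for 6 tumors. The annotation and strand setting are not given in the sources used here. No batch is labelled. The study describes the 3 tumors of a group as biological replicates.

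Values of log2(FPKM + 1) were fitted with limma 3.58.1 in R 4.3.3 (lmFit, eBayes with trend). Reads per gene were recovered from FPKM steps where all 6 tumors came within 0.07 of whole numbers (9 of the 10 genes, not *Rab27a*). The FPKM of all entries summed to between 176420 and 246514 per tumor. For single values an exact permutation test (two-sided, scipy 1.17.1) was used, whose smallest p is 0.1. Text names all 10 genes and, per pathway list, up to 3 genes past the threshold in each direction. The values of 1 gene that this rule names are not reported here. The 10 genes and all lists were chosen with earlier results of these data known, so no list is independent evidence. On simulated data for this comparison with 14172 genes, limma called 40 of 50 genes with a log2 change of 1, 41 of 50 with -1, and 9 unchanged genes. Changes were added to 200 genes, all above a mean level that *Fasl* and *Serpinb9b* do not reach, with noise drawn independently per gene. The counts therefore do not apply to genes that low, or to changes as broad as those measured here.

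The alternatives were a pseudocount of 0.1, no minimum or a minimum mean FPKM of 1, scaling to TPM, to the 75th percentile or by quantiles, no trend, no moderation, the replicate number as a block, other T cell references, the melanoma genes without *Mitf* (added later) and each tumor left out. Gene positions and exon overlaps came from GENCODE vM21.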

Additional observations from a re-analysis of the deposited data

How the results depend on the processing

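Over 26 genes and 15 alternatives, 0 of 390 log2 fold changes reversed, 346 kept their side of the threshold and 44 lost it. Of those 44, 24 came from taking each gene's variance alone, and the other losses concerned 6 genes: *Rab27a*, *Stx11*, *Ripk1*, *Serpinb1a*, *Serpinb2* and *Serpinb6a*. Without variance moderation, 1 of the 10 genes was higher and 0 were lower, 101 of all entries were higher and 27 lower, and the higher counts were 1 for exocytosis machinery, 7 for granule effectors and 0 each for the Fas pathway, clade B and clade A serpins. With no minimum on FPKM, 0 of the 10 genes were lower, and 1 gene of the melanocyte list and 3 clade B serpins were higher. The lower calls over all entries numbered 4426 under TPM, 3709 under 75th percentile scaling and 4549 under quantile normalization, which left 2 clade B serpins higher. Relative to *Cd3e* or to the CD8 T cell genes, 7 of the 10 genes were lower. When 1 tumor at a time was left out, the 10 genes held 0 to 1 lower and 8 to 9 higher calls, all entries 635 to 2003 lower and 2004 to 3480 higher calls, the Fas pathway 2 to 4 and clade B serpins 0 to 5 higher calls. With the replicate number as a block, 9 of the 10 genes were higher and 1 was lower, and 0 of the 26 genes lost the threshold. The main fit did not pair the tumors. Deviations of same-numbered tumors correlated at -0.21, -0.07 and 0.40. With 3 tumors per group, these values cannot decide whether the numbers pair the tumors. The cause of these changes was not tested. Depth limits *Fasl* and *Serpinb9b* in ACT + IL-2, at 14 to 19 reads per tumor.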

Other observations

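Of the 9 higher genes of the exocytosis list, 4 expressed at low levels are described here, named after their values were seen. Other genes of the same families did not share their direction: *Sytl2* was lower, and *Sytl4*, of the melanocyte list, overlapped between the groups (log2 fold change of 0.01, limma adjusted p of 0.932). *Sytl3*, a synaptotagmin-like Rab27 effector, measured 0.255, 0.160 and 0.0388 FPKM in the ACT + IL-2 tumors and 2.38, 3.18 and 2.49 FPKM in the ACT + NKTR-214 tumors (log2 fold change of 1.68 ± 0.13, SE, limma adjusted p of 1.61e-07). *Sytl1*, of the same family, measured 0.347, 0.158 and 0.124 FPKM against 2.85, 2.82 and 1.42 FPKM. *Rab37*, another secretory GTPase, measured 0.418, 0.202 and 0.204 FPKM against 3.13, 3.42 and 2.11 FPKM. *Rab27b*, the closest relative of *Rab27a*, measured 0.112, 0.0174 and 0.0064 FPKM in ACT + IL-2 and 0.334, 0.404 and 0.264 FPKM in ACT + NKTR-214, and passed the minimum mean of 0.1 FPKM only through the latter group, with levels far below those of *Rab27a* in every tumor. None of the 4 overlapped between the groups. The 50-base windows of *Rab27a* occurred in other annotated genes for 3.59% of its transcripts, and 3.84% of its exon bases overlap another gene model on the same strand.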
